A study of Mus musculus with 8 samples.

Results

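Liver RNA was examined for 10 genes of the major histocompatibility complex (MHC) antigen presentation pathways, chosen by name from the 28073 genes of the count table. All 10 were found once, and all 10 were among the 14088 genes with enough counts to be tested. The livers came from 8 mice of the inbred strain C57BL/6, aged 21 to 22 weeks, with 4 biological replicates fed a high-fat diet and 4 fed a low-fat control diet. No genetic change or other treatment is given for either group. Levels are given as CPM (counts scaled to a common effective library size), and every fold change sets the high-fat diet over the control diet.

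MHC class I molecules show peptides made inside the cell to CD8+ T cells. A heavy chain, here H2-K1 or H2-D1, pairs with the light chain beta-2 microglobulin, encoded by B2m. The transporter subunits TAP1 and TAP2 carry peptides into the endoplasmic reticulum, where tapasin, encoded by Tapbp, helps to load them. MHC class II molecules show peptides from the endosomes to CD4+ T cells. In C57BL/6 mice the class II molecule is I-A, made of the chains encoded by H2-Aa and H2-Ab1 and guided to endosomes by the invariant chain, encoded by Cd74. H2-Eb1 encodes the beta chain of I-E, whose alpha chain is not made in this strain. Nearly all cells carry class I, hepatocytes included, while class II is mainly a product of dendritic cells, B cells and macrophages, which are a minority in liver. In bulk tissue, fewer cells of a type and less RNA per cell cannot be told apart.

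On the high-fat diet 5 of the 6 class I genes had a lower fitted level, while B2m and the 4 class II genes had a higher one, but the differences were small and 1 of the 10 genes passed the test. H2-K1 fell by 17.3% (log2 fold change -0.27 ± 0.07, SE; edgeR adjusted p = 0.0475), and this call did not survive the removal of any 1 library. The share of called genes, 1 of 10, stands beside 9.61% of all tested genes called in either direction and 5.86% called lower. Without adjustment, edgeR's p was under 0.05 for 5 of the 10 genes, against 24.9% of all tested genes. The median log2 fold change was -0.19 over the 6 class I genes and 0.33 over the 4 class II genes, against 0.007 over all tested genes.

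Total counts lay between 26643020 and 30013106 per library, and 1 count stood for 0.0338 to 0.0388 CPM. All 10 genes lay far above that in every library. The summed level of 8 hepatocyte markers, among them Alb and Apoa1, was 55500 to 59620 CPM on the high-fat diet and 68890 to 102400 CPM on the control diet, so the markers of the labelled tissue were abundant. High-fat and control libraries did not overlap in this sum. The test called 3 of the 8 markers lower, or 37.5%, against 5.86% of all tested genes. Alb was the largest part of the sum, with means of 40226 CPM on the high-fat diet and 58206 CPM on the control diet. Its groups overlapped and it was not called (edgeR adjusted p = 0.151). Of the 8 markers 7 had a negative log2 fold change and 1, Hnf4a, a positive one (0.02, edgeR adjusted p = 0.921). Asgr1, at -0.14, was not called either (edgeR adjusted p = 0.358).

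The promoters of the heavy chain genes, of B2m and of the class II genes H2-Aa and H2-Eb1 are shown, so that the chains of the presenting molecules can be compared for elements through which class I and class II genes are known to be controlled. They come from RefSeq on GRCm38.p6, run from 250 bases before to 50 bases after the annotated start, and are written 5′ to 3′. Of the 10 genes 7 had an entry. Capitals mark matches on either strand to 4 short motifs. These are CCAAT (the Y box core, bound by NF-Y), TGACG (the core of the X2 box), GGG followed by any 2 bases and TTCCC (the NF-kappaB element of the class I enhancer A) and AANNGAAA (the core bound by interferon regulatory factors).
H2-K1, chr17:34000284-34000583, minus strand: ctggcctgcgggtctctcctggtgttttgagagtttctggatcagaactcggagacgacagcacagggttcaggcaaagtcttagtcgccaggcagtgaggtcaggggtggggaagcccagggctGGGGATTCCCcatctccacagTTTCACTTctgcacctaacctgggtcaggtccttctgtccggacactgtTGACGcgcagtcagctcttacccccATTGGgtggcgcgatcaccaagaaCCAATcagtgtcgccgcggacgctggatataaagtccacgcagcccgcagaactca
H2-D1, chr17:35262844-35263143, plus strand: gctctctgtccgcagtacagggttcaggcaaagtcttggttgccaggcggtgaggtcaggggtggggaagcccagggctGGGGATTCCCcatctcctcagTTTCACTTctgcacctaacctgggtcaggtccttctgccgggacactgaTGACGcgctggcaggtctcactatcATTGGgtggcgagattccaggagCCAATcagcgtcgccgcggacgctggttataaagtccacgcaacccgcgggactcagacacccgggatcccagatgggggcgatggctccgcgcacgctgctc
B2m, chr2:122147437-122147736, plus strand: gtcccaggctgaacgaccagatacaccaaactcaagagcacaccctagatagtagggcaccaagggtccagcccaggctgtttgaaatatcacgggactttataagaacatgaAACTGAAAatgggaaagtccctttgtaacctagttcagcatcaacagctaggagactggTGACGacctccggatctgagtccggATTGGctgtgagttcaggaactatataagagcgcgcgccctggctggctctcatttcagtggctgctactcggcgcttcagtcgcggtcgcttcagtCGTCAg
H2-Aa, chr17:34287774-34288073, minus strand: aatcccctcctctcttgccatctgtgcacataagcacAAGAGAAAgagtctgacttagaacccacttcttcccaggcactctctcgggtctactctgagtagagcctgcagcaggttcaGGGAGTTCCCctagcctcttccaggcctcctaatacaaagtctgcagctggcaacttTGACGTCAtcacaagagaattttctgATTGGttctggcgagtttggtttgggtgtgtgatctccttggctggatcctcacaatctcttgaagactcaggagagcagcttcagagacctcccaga
H2-Eb1, chr17:34305617-34305916, plus strand: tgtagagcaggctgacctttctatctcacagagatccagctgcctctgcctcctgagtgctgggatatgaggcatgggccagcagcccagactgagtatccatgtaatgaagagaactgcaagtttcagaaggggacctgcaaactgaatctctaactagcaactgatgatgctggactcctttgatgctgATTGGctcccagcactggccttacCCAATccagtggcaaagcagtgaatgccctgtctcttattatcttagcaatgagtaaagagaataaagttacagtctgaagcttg

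H2-K1 and H2-D1 held all 4 motifs, in the same order. Over 254 bases aligned without gaps, 70.9% of the bases of these 2 promoters were identical. The CCAAT matches stand 30 and 6 bases before the start in H2-K1, and 76 and 53 in H2-D1. Their spacing differs, so without gaps the bases after the match nearer the start are out of register. The percentage therefore understates how alike the promoters are there. The annotated start of H2-D1 lies 364 bases inside the gene as entered in the count table, while for H2-K1 the starts coincide. Distances to the start are therefore not directly comparable between these 2 promoters. Both had the same enhancer A letters, followed by TTTCACTT, the interferon regulatory factor match read on the other strand. B2m had its interferon factor match, AACTGAAA, 137 bases before the start, with an X2 core and a Y box core between it and the start. H2-Aa also held all 4 motifs. Its interferon factor match, AAGAGAAA, stands 213 bases before the start, and its NF-kappaB match, GGGAGTTCCC, 131 bases before it. That is the reverse of the order of these 2 motifs in H2-K1 and H2-D1. In H2-Aa the X2 matches on the 2 strands overlap and the Y box core stands 48 bases before the start. H2-Eb1 had 2 CCAAT matches and no match to the other 3 motifs in this window. Short motifs are common: of 27025 promoters of the same length, 37.9% held CCAAT, 21.0% TGACG, 24.2% AANNGAAA and 1.66% the NF-kappaB element on either strand. A match describes letters and does not show binding.

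The class I heavy chain gene H2-K1 lies at chromosome 17, 33996017 to 34000333, minus strand in mm10 (ENSMUSG00000061232.15). Its level was 968.6, 1030.0, 947.1 and 980.8 CPM in high-fat replicates 1 to 4, against 1102.0, 1205.0, 1246.0 and 1195.0 CPM in control replicates 1 to 4. Every high-fat library was below every control library. Groups that do not overlap with the high-fat libraries lower were found for 9.97% of all tested genes, and in either direction for 17.3%. The means were 981.7 ± 35.3 CPM on the high-fat diet and 1187 ± 60.7 CPM on the control diet (SD, n = 4 each). H2-K1 was called in 5 of 17 other analyses and in none of the 8 that left out 1 library, where edgeR's adjusted p ran from 0.0571 to 0.12 and the log2 fold change from -0.31 to -0.25. Scaled by library totals only, a setting under which the median over all tested genes was 0.10, H2-K1 stood at -0.18 on the log2 scale and did not pass (edgeR, adjusted p = 0.126).

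H2-D1, the second classical class I heavy chain of this strain, lies at chromosome 17, 35262730 to 35267499, plus strand (ENSMUSG00000073411.11). It had 506.9, 518.5, 465.7 and 489.6 CPM in the high-fat libraries, against 523.7, 570.5, 570.5 and 543.3 CPM in the control libraries. The groups did not overlap, but high-fat replicate 2 and control replicate 1 were close. With a log2 fold change of -0.16 (95% interval -0.31 to -0.004; edgeR adjusted p = 0.190), H2-D1 did not pass. Reads of the heavy chain genes can be shared, since 8.79% of the 50-base stretches of the principal H2-K1 transcript and 14.3% of those of H2-D1 also occur in a transcript of another gene. How such reads were assigned is not given in the sources used here.

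The ratio of H2-K1 to H2-D1 counts within a library does not depend on scaling. It was 1.91, 1.99, 2.03 and 2.0 in the high-fat libraries, against 2.11, 2.11, 2.18 and 2.2 in the control libraries. All high-fat ratios were below all control ratios, and the mean log2 ratio differed by -0.12 (exact two-sided permutation test over 70 splits, p = 0.0286, the smallest this design allows). Adjusted over the 2 ratios tested it was p = 0.0571 (exact permutation), so the difference did not pass.

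B2m, whose product is shared by class I and class I-like molecules, was the most abundant of the 10 genes (chromosome 2, 122147686 to 122153083, plus strand; ENSMUSG00000060802.8). It had 1661.0, 1577.0, 1474.0 and 1646.0 CPM in the high-fat libraries, against 1416.0, 1501.0, 1575.0 and 1770.0 CPM in the control libraries. The groups overlapped throughout. Its log2 fold change was 0.02 (95% interval -0.19 to 0.23; edgeR adjusted p = 0.911); the sign was negative in 1 of 17 other analyses, at -0.03 without control replicate 1.

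Tap1, one half-transporter gene of the peptide pump (chromosome 17, 34187553 to 34197225, plus strand; ENSMUSG00000037321.17), had 36.7, 32.6, 30.2 and 32.4 CPM in the high-fat libraries. The control libraries had 36.9, 37.4, 40.2 and 43.1 CPM. The groups did not overlap, though high-fat replicate 1 and control replicate 1 were nearly equal. The log2 fold change of -0.26 ± 0.08 (SE) did not pass (edgeR adjusted p = 0.0695). It passed with DESeq2 (adjusted p = 0.0459) and in the edgeR fit without high-fat replicate 1 (adjusted p = 0.0452). Tap1 overlaps Psmb9 on the opposite strand, whose summed count was 46.7% of its own, so reads of the pair may not be fully separated.

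Tap2, the partner gene of Tap1 (chromosome 17, 34203527 to 34216321, plus strand; ENSMUSG00000024339.12), had 25.2, 28.3, 22.1 and 26.2 CPM in the high-fat libraries, against 26.97, 31.5, 27.1 and 27.04 CPM in the control libraries. High-fat replicate 2 reached into the control range. Its log2 fold change was -0.15 (95% interval -0.34 to 0.05; edgeR adjusted p = 0.349). Tapbp, the tapasin gene (chromosome 17, 33915899 to 33929288, plus strand; ENSMUSG00000024308.14), had 75.0, 87.3, 88.6 and 81.2 CPM on the high-fat diet, against 85.8, 113.2, 97.3 and 92.8 CPM on the control diet. The lowest control library lay below 2 of the high-fat libraries. Its log2 fold change of -0.23 (95% interval -0.44 to -0.02) did not pass (edgeR adjusted p = 0.159), and Zbtb22, which overlaps it on the same strand, held 17.5% as many counts. Of the 6 class I genes 5 had a negative log2 fold change, and all 5 kept that sign in all 17 other analyses, library totals alone included.

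**Figure D1:**
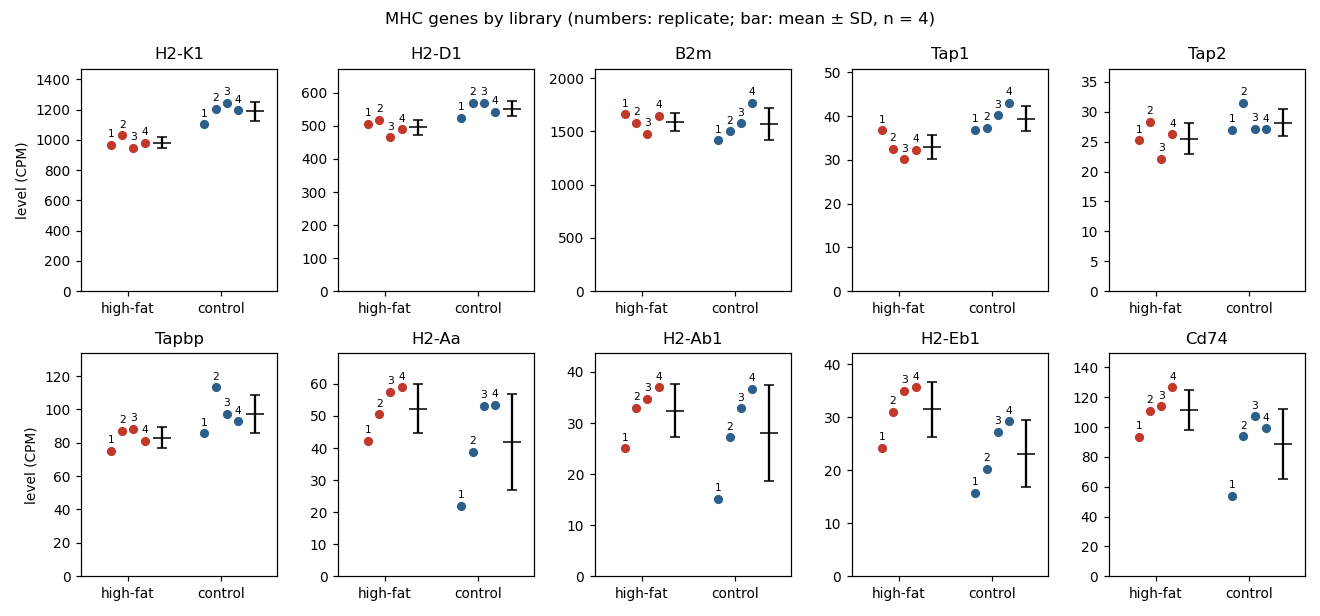
Level of each of the 10 MHC genes in CPM (linear axes from 0) in 4 high-fat (left) and 4 control (right) livers; numbers are replicates and bars are means ± SD. H2-K1, H2-D1 and Tap1 do not overlap between the diets, and control replicate 1 is the lowest control library for all 10 genes.

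The 4 class II genes had higher means on the high-fat diet, but none passed the test and the control libraries spread widely. H2-Aa, the I-A alpha chain gene (chromosome 17, 34282744 to 34287827, minus strand; ENSMUSG00000036594.14), had 42.2, 50.5, 57.6 and 58.9 CPM in high-fat replicates 1 to 4, against 22.0, 38.8, 53.3 and 53.5 CPM in control replicates 1 to 4. Control replicate 1 was far below the rest, and the 2 highest control libraries lay within the high-fat range. H2-Aa had a log2 fold change of 0.32 (95% interval -0.23 to 0.87; edgeR adjusted p = 0.464), and of 0.11 without control replicate 1.

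H2-Ab1, the I-A beta chain gene (chromosome 17, 34263209 to 34269418, plus strand; ENSMUSG00000073421.5), had 25.1, 33.0, 34.7 and 37.0 CPM on the high-fat diet, against 15.2, 27.2, 32.9 and 36.8 CPM on the control diet. The ranges overlapped in all but the lowest control library. Its log2 fold change was 0.21 (95% interval -0.32 to 0.74; edgeR adjusted p = 0.635), and 0.005 without control replicate 1. The count ratio of the 2 chains of I-A, H2-Aa over H2-Ab1, was 1.69, 1.53, 1.66 and 1.59 in the high-fat libraries. In the control libraries it was 1.45, 1.43, 1.62 and 1.46. The mean log2 ratio differed by 0.12 (exact two-sided permutation test, p = 0.0857, and p = 0.0857 adjusted over 2 ratios), which did not pass.

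H2-Eb1, the I-E beta chain gene (chromosome 17, 34305877 to 34316199, plus strand; ENSMUSG00000060586.10), had 24.3, 31.1, 35.0 and 35.7 CPM in the high-fat libraries, against 15.8, 20.2, 27.3 and 29.3 CPM in the control libraries. The lowest high-fat library lay inside the control range and the other 3 above it. This was the largest difference of the class II genes, a log2 fold change of 0.44 (95% interval 0.009 to 0.88), and it did not pass over all genes (edgeR adjusted p = 0.191). Cd74, the invariant chain gene (chromosome 18, 60803848 to 60812646, plus strand; ENSMUSG00000024610.14), had 93.7, 110.9, 114.0 and 126.6 CPM on the high-fat diet, against 54.1, 93.7, 107.2 and 99.2 CPM on the control diet. Control replicate 1 again stood lowest. A log2 fold change of 0.33 (95% interval -0.09 to 0.75; edgeR adjusted p = 0.321) was 0.15 without that library.

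The 4 class II genes varied together within each diet. In the control group replicate 1 was the lowest library for all 10 genes, class I included, where it stood at 92.9% (H2-K1), 90.4% (B2m) and 88.2% (Tapbp) of the control mean. The class II genes lay further down in it, at 52.5% (H2-Aa), 54.3% (H2-Ab1), 68.2% (H2-Eb1) and 61.1% (Cd74) of their control means. In the high-fat group all 4 were lowest in replicate 1 and highest in replicate 4. The coefficient of variation over the control libraries was 35.7% for H2-Aa and 33.5% for H2-Ab1, against 5.11% for H2-K1 and 4.13% for H2-D1. The SE of the log2 fold change was accordingly 0.19 to 0.25 for the class II genes and 0.07 for H2-K1. All 4 kept a positive sign in all 17 other analyses, in which the smallest value was 0.005 for H2-Ab1.

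**Figure D2:**
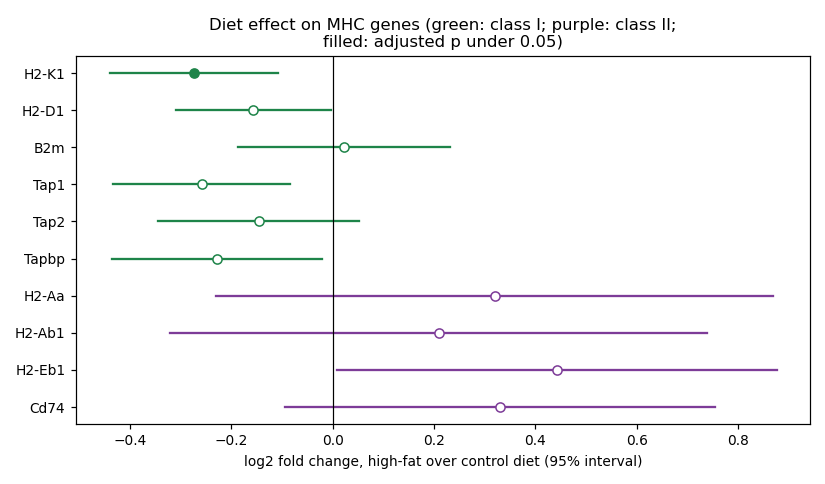
Log2 fold change of each gene, high-fat over control diet, with its 95% interval from the edgeR fit; class I genes are green, class II genes purple, and a filled point marks an adjusted p under 0.05. Only H2-K1 is filled, and the class II intervals are wider than those of the class I genes.

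Levels per length were compared after division by the length of the principal transcript in GENCODE M21, an annotation of the same genome. B2m led with 1848 ± 99.3 CPM per kb on the high-fat diet and 1820.0 ± 175.9 on the control diet (SD, n = 4 each). H2-K1 followed with 606.4 ± 21.8 and 733.3 ± 37.5 CPM per kb on the high-fat and control diets, and H2-D1 with 235.6 ± 10.9 and 262.6 ± 10.8. Cd74 came next with 78.9 ± 9.62 CPM per kb on the high-fat diet and 62.8 ± 16.8 on the control diet. These 4 kept their places in all 8 libraries. Below them several neighbours did not differ beyond their spread: on the control diet H2-Aa had 37.1 ± 13.2 and Tapbp 33.6 ± 4.01 CPM per kb, and H2-Eb1 13.9 ± 3.75 and Tap1 13.4 ± 0.97. Tap2 was lowest, with 7.40 ± 0.75 CPM per kb on the high-fat diet and 8.18 ± 0.651 on the control diet. With the length of all annotated exons the first 4 kept their order, while H2-Aa moved to the seventh place and Tap1 to the tenth. In all, the 6 class I genes held 0.331% ± 0.00549 of all counts on the high-fat diet and 0.336% ± 0.0187 on the control diet. The 4 class II genes held 0.0235% ± 0.00343 and 0.0176% ± 0.00509 on the same diets.

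**Figure D3:**
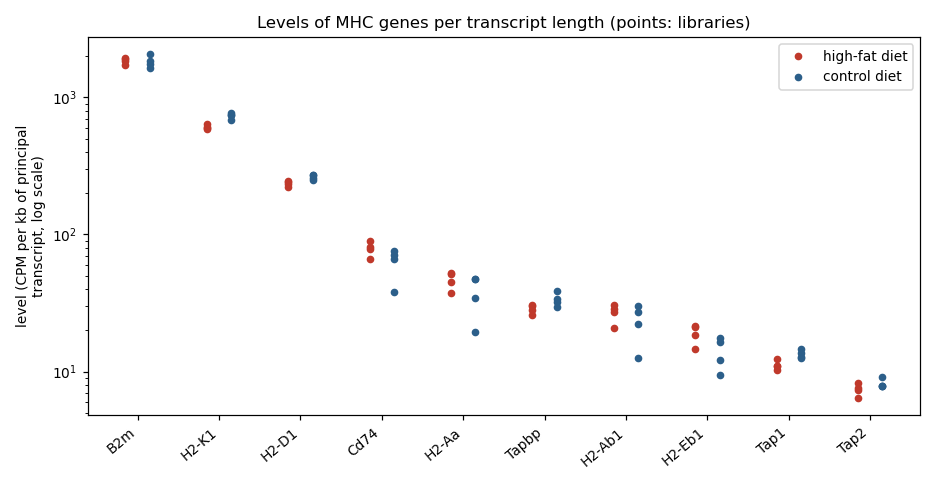
Level of each gene per kb of principal transcript (log axis) in the 4 high-fat livers (left point column of each gene) and the 4 control livers (right column), ordered by the control mean. B2m, H2-K1 and H2-D1 stand apart in that order, Tap2 is lowest in every library, and the genes from Cd74 to Tap1 overlap with a neighbour.

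Other genes of the class I pathway were read from the same fit. Of 25 tested, among them nonclassical heavy chains, chaperones and immunoproteasome subunits, 7 fell and none rose, or 28.0% lower against 5.86% of all tested genes. Their median log2 fold change was -0.17. H2-Q7, which encodes a Qa-2 heavy chain, had 31.0, 31.2, 19.6 and 25.4 CPM in the high-fat libraries, against 62.5, 68.1, 60.1 and 41.7 CPM in the control libraries. The groups did not overlap, and the log2 fold change was -1.12 ± 0.18 (SE; edgeR adjusted p = 0.00671). Its neighbour H2-Q6 fell by 0.93 (13.7 ± 2.53 CPM on the high-fat diet and 26.1 ± 3.82 CPM on the control diet; edgeR adjusted p = 0.00636). Of the 50-base stretches of the principal transcripts, 40.2% of H2-Q7 and 35.0% of H2-Q6 occur in other genes. Within the pair, 19.6% of those of H2-Q7 occur in H2-Q6 and 13.9% of those of H2-Q6 occur in H2-Q7. The pair therefore cannot be taken as separate measurements, though both genes are among the 7 that fell.

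H2-T23, the gene of Qa-1, a ligand of NK cell receptors, fell to 116.6 ± 7.62 CPM on the high-fat diet, against 161.7 ± 13.5 CPM on the control diet (log2 fold change -0.47 ± 0.08; edgeR adjusted p = 0.00773). Of the 50-base stretches of its principal transcript, 29.8% also occur in transcripts of other genes, so its reads may not be fully separated. Mr1, which presents vitamin metabolites, fell to 6.30 ± 1.78 CPM on the high-fat diet, against 12.6 ± 3.24 CPM on the control diet (edgeR adjusted p = 0.0292), although high-fat replicate 1 lay within the control range. H2-Q2 fell by 1.49 but had 37 counts or fewer in every library (edgeR adjusted p = 0.0286). Of the immunoproteasome genes Psmb8 fell by 0.45 (28.2 ± 3.76 and 38.6 ± 4.73 CPM on the high-fat and control diets; edgeR adjusted p = 0.0372). Psmb9 (-0.25) and Psmb10 (-0.22) did not pass (edgeR adjusted p = 0.245 and 0.216). Psme2, a subunit of the proteasome activator PA28, fell by 0.36 (edgeR adjusted p = 0.0172). The chaperone gene Calr had 1014.6 ± 123.2 CPM on the high-fat diet and 1118.0 ± 116.9 CPM on the control diet, and did not pass (edgeR adjusted p = 0.489). H2-Q6, H2-Q7, H2-T23 and Psme2 stayed called with any 1 library left out, whereas H2-Q2, Mr1 and Psmb8 passed in 2 of those 8 fits each. The count of 7 dropped to 4 in each of the fits that left out control library 2 or high-fat libraries 2, 3 or 4. The hepatocyte marker sum was also lower on the high-fat diet, as given above. Its part in the values of this list was not tested.

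Of 13 tested genes of the class II pathway outside the 4 described, 1 fell and none rose, 7.69% against 5.86% called lower among all tested genes, with a median log2 fold change of 0.14. The 1 called gene was Ctsl, a lysosomal protease that hepatocytes also express, with 527.1 ± 28.0 CPM on the high-fat diet and 812.8 ± 34.0 CPM on the control diet (log2 fold change -0.62 ± 0.07; edgeR adjusted p = 0.00229). It passed in all 17 other analyses. Without control replicate 2, 1 gene of this list was called higher. H2-DMa, a subunit of the peptide exchange factor of class II, had 4.84 ± 0.236 CPM on the high-fat diet and 4.54 ± 1.14 CPM on the control diet, and did not pass (edgeR adjusted p = 0.792), with a sign that turned in 2 of 17 other analyses. Control replicate 1, the lowest library for the class II genes, was also the lowest for H2-DMa, with 3.22 CPM.

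**Figure D4:**
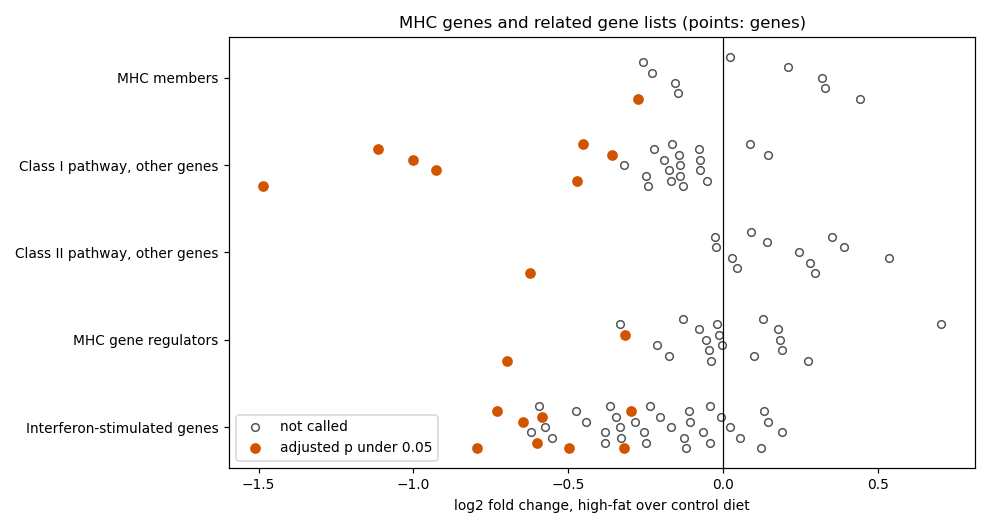
Log2 fold change, high-fat over control diet, of each tested gene of the 10 MHC genes and of 4 related lists; filled points have an edgeR adjusted p under 0.05. All filled points lie below 0, with 7 in the class I pathway list and 8 among interferon-stimulated genes.

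The master regulators of the 2 pathways were compared next. Ciita, the coactivator that class II transcription requires, had 3.22, 4.32, 4.06 and 3.27 CPM in the high-fat libraries, against 1.20, 2.11, 2.61 and 3.18 CPM in the control libraries. Every high-fat library was above every control library, a pattern found for 7.28% of all tested genes in that direction. The lowest control library was again replicate 1. The log2 fold change of 0.70 (95% interval 0.12 to 1.29) did not pass (edgeR adjusted p = 0.130) in this or any of 17 other analyses. Nlrc5, the related coactivator of class I genes, had 24.2, 20.4, 18.5 and 15.7 CPM in the high-fat libraries, against 16.4, 25.0, 29.5 and 28.2 CPM in the control libraries. The groups overlapped, and the log2 fold change was -0.33 (95% interval -0.75 to 0.09; edgeR adjusted p = 0.309).

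Of 20 tested regulators 2 fell and none rose, against 5.86% of all tested genes called lower and 3.75% called higher, with a median log2 fold change of -0.03. Rfxank, a subunit of the RFX complex that binds the X box, fell by 0.70 (15.2 ± 3.34 CPM on the high-fat diet and 24.7 ± 1.33 CPM on the control diet; edgeR adjusted p = 0.0136). Nfyb, a subunit of the CCAAT-binding factor NF-Y, fell by 0.32 (edgeR adjusted p = 0.0372) and passed in 2 of 8 fits that left out a library. Rfxank passed in all 8, but without control replicates 1 and 4 together neither was called. With library totals alone 1 regulator was called lower and 1 higher. Irf1, an interferon regulatory factor, had 27.8 ± 5.08 CPM on the high-fat diet and 25.4 ± 4.04 CPM on the control diet, and did not pass (edgeR adjusted p = 0.645).

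Interferon-stimulated genes, which are induced by the same signals as class I genes, were lower in part. Of 40 tested 8 fell and none rose, against 5.86% of all tested genes called lower, with a median log2 fold change of -0.29. Irf7, an interferon regulatory factor, fell by 0.73 (edgeR adjusted p = 0.0129) and Usp18, a brake on interferon signalling, by 0.79 (edgeR adjusted p = 0.0141). Both stayed called with any 1 library left out. Ifi27, Ifih1, Ifi44 and Irf9 fell by 0.60, 0.30, 0.59 and 0.32, and passed in 4, 4, 2 and 1 of those 8 fits. The count of 8 dropped to 2 when control library 2 or high-fat libraries 2 or 3 were each left out, and to 5 when control library 3 or high-fat libraries 1 or 4 were. It was 3 with library totals alone, 12 with DESeq2, 0 at a threshold of 0.01 and 13 at 0.10. The hepatocyte marker sum was lower on the same diet, 55500 to 59620 CPM against 68890 to 102400 CPM on the control diet. Alb, the largest part of that sum, was not itself called. The part of the sum in this list was not tested.

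**Figure D5:**
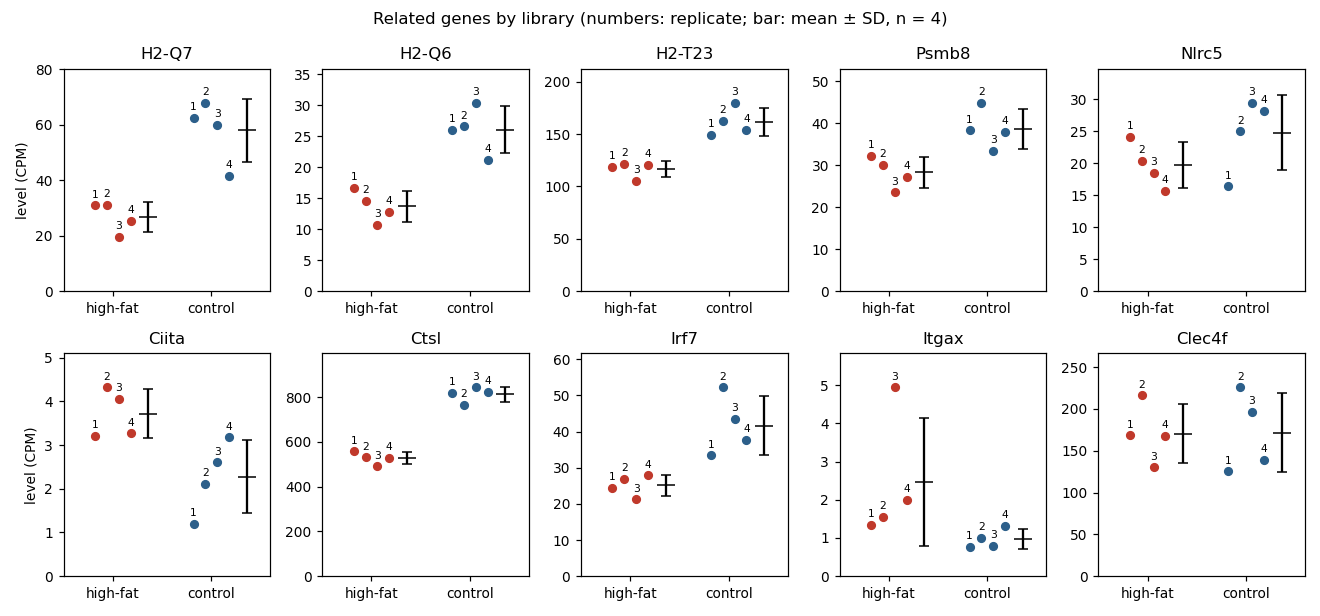
Level in CPM (linear axes from 0) of 10 related genes in 4 high-fat (left) and 4 control (right) livers; numbers are replicates and bars are means ± SD. H2-Q7, H2-Q6, H2-T23, Psmb8, Ctsl and Irf7 are lower on the high-fat diet, Ciita and Itgax lie above the control libraries without passing the test, and Nlrc5 and the Kupffer cell marker Clec4f overlap.

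Markers of the cells that carry class II were read beside these values. No listed marker was at 0 in all libraries. The summed level of 10 dendritic cell markers was 13.7 to 18.9 CPM on the high-fat diet and 10.96 to 15.7 CPM on the control diet, and none of the 8 tested was called. Itgax, the CD11c gene, was picked from this list after its values were seen. It had 1.35, 1.56, 4.94 and 1.998 CPM in the high-fat libraries, against 0.776, 0.999, 0.789 and 1.32 CPM in the control libraries (edgeR adjusted p = 0.0823). Of the 8 tested markers only Itgax did not overlap, a pattern found in that direction for 7.28% of all tested genes. The log2 fold change was positive for 6 of the 8 and negative for 2, Zbtb46 and Batf3. The sum of 9 B cell markers was 3.25 to 5.48 CPM on the high-fat diet and 2.63 to 4.18 CPM on the control diet, with none of 4 called. The recruited monocyte and macrophage markers summed to 154.5 to 224.4 CPM on the high-fat diet and 91.9 to 205.4 CPM on the control diet. Itgam is entered in this list under more than 1 gene identifier, and each entry is counted and summed. Of 10 tested entries 1 rose, against 3.75% of all tested genes called higher. All 10 had a positive log2 fold change, with a median of 0.49. Among all 14088 tested genes 7196 had a positive one, with a median of 0.007. Spp1, with means of 55.8 CPM on the high-fat diet and 36.3 CPM on the control diet, is also in the cholangiocyte list. The called gene was Cx3cr1, a chemokine receptor gene, with 1.69 ± 0.639 and 0.719 ± 0.203 CPM on the high-fat and control diets (edgeR adjusted p = 0.0410). It was called in 2 of 8 fits without 1 library. Kupffer cell markers, with none of 11 called, summed to 643.4 to 1058.0 CPM on the high-fat diet and 539.7 to 1200.0 CPM on the control diet. Of the markers of T and NK cells, endothelial cells, stellate cells, cholangiocytes and neutrophils none was called. The adipocyte markers summed to 33.9 to 87.8 CPM on the high-fat diet and 13.3 to 17.5 CPM on the control diet, without overlap, and 1 of 2 tested rose. The part of cell composition in the class II values was not tested.

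Centred log2 levels over the 8 libraries were compared between genes, with the MHC genes chosen by name at the outset left out as candidates. H2-Ab1 was therefore not ranked. Among 2047 other protein-coding genes that varied enough to be compared, the 4 closest to H2-Aa were Ankrd42, Acrbp, Rad9b and Tbc1d8. Their root mean square differences were 0.13, 0.14, 0.18 and 0.19. Ankrd42, Acrbp and Rad9b had low means of 1.58, 1.98 and 2.38 CPM. For H2-K1 the closest of 8782 were Avl9, Rpl23a, Ndufb10 and Fpgt, with differences of 0.02, 0.04, 0.04 and 0.04. The SD of the log2 level over the 8 libraries was 0.47 for H2-Aa and 0.16 for H2-K1. The distances of the 2 genes are therefore not directly comparable. These distances describe 8 libraries only and carry no test.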

How the data were processed

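The authors deposited whole-number counts for each gene of 8 mouse liver RNA-seq libraries, made per the labels from frozen tissue with mirVana RNA isolation and a TruSeq Stranded Total RNA kit. The submitters' processing notes list bcl2fastq 2.20.0.422, Trimmomatic 0.32, TopHat2 2.1.1 and the build mm10, with no settings. How reads were counted, with which strand setting and annotation, and what was done with reads of several matches, is not stated there.

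The fit used edgeR 4.0.16 under R 4.3.3: filterByExpr (14088 genes left, with 99.9% of counts), TMM scaling and the quasi-likelihood test between diets with no covariate. Benjamini-Hochberg adjustment ran over all tested genes, with calls at 0.05. The SE is the absolute log2 fold change over the square root of F. Replicates, which the labels call biological, are numbered in sample order, with no pairing or batch labelled. The 10 genes, the lists and the tests were chosen with earlier results of these data known. All 10 genes are named, with up to 6 called genes per related list and a few fixed regulators, of which 1 is not reported here. Itgax, Cx3cr1 and Clec4f were named after their values were seen. On simulated counts for this comparison (14088 genes), 76% of 100 genes with a log2 change of 1 were recovered, and 97% of 100 with a change of 2. Smaller changes were not simulated. All 10 MHC genes had fitted log2 changes smaller than 1, so recovery at their sizes was not measured. The other analyses used RLE or upper-quartile factors, library totals alone, DESeq2 1.42.0, voom of limma 3.58.1, 2 other low-count filters, scaling without the 10 most abundant genes, or fewer libraries. Control replicates 1 and 4 were also removed together, because an earlier analysis had set them apart by adipose transcripts. Transcript lengths and shared 50-base stretches are from GENCODE M21, and promoters from RefSeq.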

Additional observations from a re-analysis of the deposited data

Results flagged for a closer look

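Of 78 gene and diet combinations examined among the named genes, 2 held a library whose gap to the nearest other exceeded most of the group's range; chance flags about 1 in 20 groups of 4, so this number is below what chance gives. Tap2 in control replicate 2 had 31.5 CPM, while the highest of the other control libraries had 27.1 CPM. Psme2 in high-fat replicate 3 had 34.3 CPM, while the other high-fat libraries had 39.4 to 39.9 CPM.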

How the results depend on the processing

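Of the 10 MHC genes none was called higher under any alternative. The count called lower, 1, became 2 with DESeq2 (H2-K1 and Tap1) and at a threshold of 0.10. It became 0 with upper-quartile factors, with library totals alone, without a low-count filter, without control replicates 1 and 4, and at a threshold of 0.01. With 1 library left out it ran from 0 to 1, and the 1 was Tap1, without high-fat replicate 1. Over all genes, 529 were called higher and 825 lower. Library totals alone gave 1111 and 534, DESeq2 gave 810 and 1160, and without control replicates 1 and 4 the counts were 282 and 461. A threshold of 0.01 gave 148 and 221 and one of 0.10 gave 921 and 1284. With 1 library left out the counts ran from 293 to 636 higher and from 432 to 843 lower, with fewer samples. The log2 ratio of H2-K1 to H2-D1 differed by -0.13 to -0.099 and that of H2-Aa to H2-Ab1 by 0.10 to 0.17 when 1 library was left out. No paired analysis was possible because the labels give no replicate numbers or pairing. The cause of these changes was not tested. With 4 livers per diet, the class II genes had a coefficient of variation of 26.7% to 35.7% over the control libraries.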
